A study of Mus musculus with 12 samples.

Results

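Ercc1, Tinagl1 and Rin3 are 3 genes of the 21493 listed in the count tables of mouse heart cell libraries, and all 3 were among the 13158 genes with enough reads to be tested. They were selected on their measured levels in swim against non-swim libraries within each genotype, so that their swimming differences are given below as a description with no test. The study asked how the intermediate filament protein desmin shapes gene expression in adult cardiomyocytes at rest and under the stress of swimming exercise. Poly-A RNA was sequenced from primary cardiomyocytes of 3-month-old Des+/+ mice (desmin gene intact) and Des-/- mice (desmin gene deleted), each with or without swimming, and each of the 4 groups (Des+/+ non-swim, Des+/+ swim, Des-/- non-swim and Des-/- swim) had 3 libraries. By the study's methods a library pooled the isolated cardiomyocytes of several mice, so the spread between libraries is that between pools. The study's methods describe lines of both genotypes on 1 inbred background that carry a GFP transgene under the cardiomyocyte promoter αMHC. The labels do not name the transgene, and whether the mice of these libraries carried it is not settled. The cells were not sorted after isolation as far as the labels say. Germline deletion removes desmin from every cell of the body that makes it, not from cardiomyocytes alone.

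Ercc1 is a DNA repair protein that works as the non-catalytic partner of the nuclease Ercc4 (XPF). The pair cuts the damaged strand on its 5′ side in nucleotide excision repair, where Xpa positions it, and it also acts in crosslink repair on the scaffold Slx4. Tinagl1 (tubulointerstitial nephritis antigen-like 1) is a secreted matricellular protein of basement membranes that is related to cysteine proteases and binds integrins. Rin3 is a guanine nucleotide exchange factor of the RIN family, which loads GTP onto small GTPases of the Rab5 group and so acts in the early steps of endocytosis.

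In GRCm38 coordinates with GENCODE M21 gene models, Ercc1 (ENSMUSG00000003549) spans chr7:19344778-19356524 on the plus strand, with 3111 bases of merged exon. Tinagl1 (ENSMUSG00000028776) spans chr4:130164454-130175122 on the minus strand, with 4358 exonic bases. Rin3 (ENSMUSG00000044456) is the longest locus, chr12:102283048-102390855 on the plus strand, with 6835 exonic bases. The 3 genes lie on different chromosomes, and a swimming difference shared by them is not one of a common locus.

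The sequences at their starts are shown because the 3 genes were higher together after swimming in the Des+/+ libraries. RefSeq windows of 300 bases (GRCm38.p6), from 250 bases before to 50 after a transcript start, matched all 3 genes in 5 windows, and the window nearest to the annotated gene start is printed for each, 5′ to 3′ on the gene's strand. Capitals mark matches to any of 8 motifs searched on both strands: the AP-1 site written as TGANTCA, the cyclic AMP response element (CRE) written as TGACGTCA, the E-box written as CACGTG, the GC box written as GGGCGG, the CCAAT box searched by the letters of its name, the TATA box written as TATAAA, the ETS site written as CCGGAAGT and a pair of heat shock units written as GAANNTTC. No letter belonged to matches of 2 motifs. The windows are chr7:19344821-19345120 for Ercc1, chr4:130175073-130175372 for Tinagl1 and chr12:102282824-102283123 for Rin3.
Ercc1: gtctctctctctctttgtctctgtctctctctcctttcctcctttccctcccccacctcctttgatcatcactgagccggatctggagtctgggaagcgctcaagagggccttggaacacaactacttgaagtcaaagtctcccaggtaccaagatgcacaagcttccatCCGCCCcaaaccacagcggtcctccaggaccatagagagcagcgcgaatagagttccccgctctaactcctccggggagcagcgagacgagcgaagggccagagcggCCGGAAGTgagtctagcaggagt
Tinagl1: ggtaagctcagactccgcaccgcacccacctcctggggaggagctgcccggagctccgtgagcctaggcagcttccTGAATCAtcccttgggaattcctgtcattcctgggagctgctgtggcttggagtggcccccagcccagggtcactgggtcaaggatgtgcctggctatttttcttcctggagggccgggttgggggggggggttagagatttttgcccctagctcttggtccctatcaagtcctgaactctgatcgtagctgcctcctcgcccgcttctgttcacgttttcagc
Rin3: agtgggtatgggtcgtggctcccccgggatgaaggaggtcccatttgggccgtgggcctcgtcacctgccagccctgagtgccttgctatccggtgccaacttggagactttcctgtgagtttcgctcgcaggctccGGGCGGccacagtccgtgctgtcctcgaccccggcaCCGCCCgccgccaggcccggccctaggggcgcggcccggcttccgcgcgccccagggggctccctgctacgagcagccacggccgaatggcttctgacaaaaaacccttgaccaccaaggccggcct

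The printed windows shared no motif across all 3 genes. Ercc1 held 1 GC box 80 bases before the start and 1 ETS match 27 bases after it. Tinagl1 held 1 AP-1 match, 174 bases before its start. Rin3 held 2 GC boxes, 113 and 77 bases before its start. Of the 32851 RefSeq mouse windows of this length, 35.7% held a GC box, 7.81% an AP-1 match and 3.89% an ETS match, so the GC box is common and the others are not rare. The remaining motifs, without a match in these 3 windows, were found in 1.79% (CRE), 7.15% (E-box), 37.4% (CCAAT), 13.6% (TATA) and 7.86% (heat shock pair) of all windows. A second Tinagl1 start 320 bases inside the gene had 4 GC boxes, and a second Rin3 start 593 bases inside had 1. The count tables hold 1 value per gene and cannot tell these starts apart.

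Des, the deleted gene, ranged from 973 to 3647 CPM (a gene's reads divided by all reads in genes, on the usual CPM scale) in the Des+/+ libraries and from 50.3 to 101 CPM in the Des-/- libraries, in accordance with the labels. The reads in genes numbered 8935126 to 12072443 in Des+/+ non-swim, 7425291 to 9440967 in Des+/+ swim, 8058801 to 11206142 in Des-/- non-swim and 4320819 to 6521963 in Des-/- swim, the shallowest group. Des-/- non-swim replicate 3 stood apart most in the summed level of 14 macrophage and leukocyte markers. It had 4707 CPM against 467 and 746 CPM in the other libraries of its group. Des-/- swim replicate 3 was also the highest of its group, at 1449 CPM against 357 and 253 CPM. The swim libraries had more uniquely aligned reads that were counted for no gene. Their share was 45.9% to 50.4% against 33.97% to 39.3% in Des+/+ and 57.2% to 64.5% against 34.2% to 52.3% in Des-/-. This class is not limited to reads between genes, since reads in introns or on a gene's other strand can fall in it. All levels, above and below, are CPM of reads in genes with TMM (trimmed mean of M-values) scaling unless said otherwise. Differences are log2 differences fitted by edgeR over all 12 libraries with their standard errors (SE).

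Ercc1 was higher after swimming in both genotypes and by nearly the same factor. In Des+/+ non-swim libraries its level was 24.99, 36.0 and 33.9 CPM, and in Des+/+ swim libraries it was 77.8, 72.9 and 83.2 CPM. The groups were well separated, with the lowest swim library 2.02 times the highest non-swim library. In Des-/- non-swim libraries its level was 36.2, 35.7 and 35.9 CPM, and in Des-/- swim libraries it was 84.7, 90.5 and 102 CPM. Here the lowest swim library was 2.34 times the highest non-swim library. The Des-/- non-swim values lay closer together than their counting error, since each rested on 315 to 411 reads, with exact Poisson 95% intervals between 31.8 and 40.3 CPM, so their small SD (0.288 CPM, n = 3) does not measure the spread between animals. The group means were 31.6 ± 5.85 and 78.0 ± 5.19 CPM in Des+/+ and 36.0 ± 0.288 and 92.5 ± 8.90 CPM in Des-/- (SD, n = 3). The fitted difference was 1.30 (SE 0.14) in Des+/+, or 2.46-fold, and 1.36 (SE 0.14) in Des-/-, or 2.57-fold, and these differed by 0.06 (SE 0.20). Among all genes tested, 1.15% had a larger positive difference in Des+/+ and 0.874% in Des-/-.

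Tinagl1 was also higher after swimming in both genotypes, with the larger difference in Des+/+. Its level was 275, 214 and 321 CPM in Des+/+ non-swim libraries and 742, 730 and 1083 CPM in Des+/+ swim libraries. The third swim library was the highest of all 12, and the lowest swim library was still 2.27 times the highest non-swim library. In Des-/- its level was 292, 223 and 213 CPM in non-swim libraries and 480, 477 and 557 CPM in swim libraries. The gap was narrower here, with the lowest swim library 1.63 times the highest non-swim library. Group means were 270 ± 53.6 and 851 ± 200 CPM in Des+/+ and 242 ± 43.4 and 505 ± 45.4 CPM in Des-/- (SD, n = 3). The fitted difference was 1.66 (SE 0.22) in Des+/+, or 3.15-fold, and 1.06 (SE 0.21) in Des-/-, or 2.08-fold. The non-swim groups overlapped between genotypes, and every Des+/+ swim library lay above every Des-/- swim library, by a factor of 1.31 or more. Without the third Des+/+ swim library the Des+/+ difference was 1.44.

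Rin3 was higher after swimming in Des+/+ and hardly different in Des-/-. Its level was 92.5, 60.1 and 82.2 CPM in Des+/+ non-swim libraries and 207, 252 and 227 CPM in Des+/+ swim libraries. The lowest swim library was 2.24 times the highest non-swim library. In Des-/- its level was 87.4, 101 and 75.8 CPM in non-swim libraries and 91.6, 107 and 115 CPM in swim libraries. These groups overlapped, and all 6 Des-/- libraries lay below the lowest Des+/+ swim library. Group means were 78.3 ± 16.6 and 229 ± 22.3 CPM in Des+/+ and 88.1 ± 12.6 and 105 ± 12.02 CPM in Des-/- (SD, n = 3). The fitted difference was 1.55 (SE 0.18) in Des+/+, or 2.92-fold, and 0.25 (SE 0.18) in Des-/-, or 1.19-fold. In Des-/-, 23.8% of all genes tested had a larger positive difference. The Des-/- difference was smaller by 1.30 (SE 0.25) on the log2 scale, which is a description, since it is built from the contrasts that chose the gene.

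**Figure D1:**
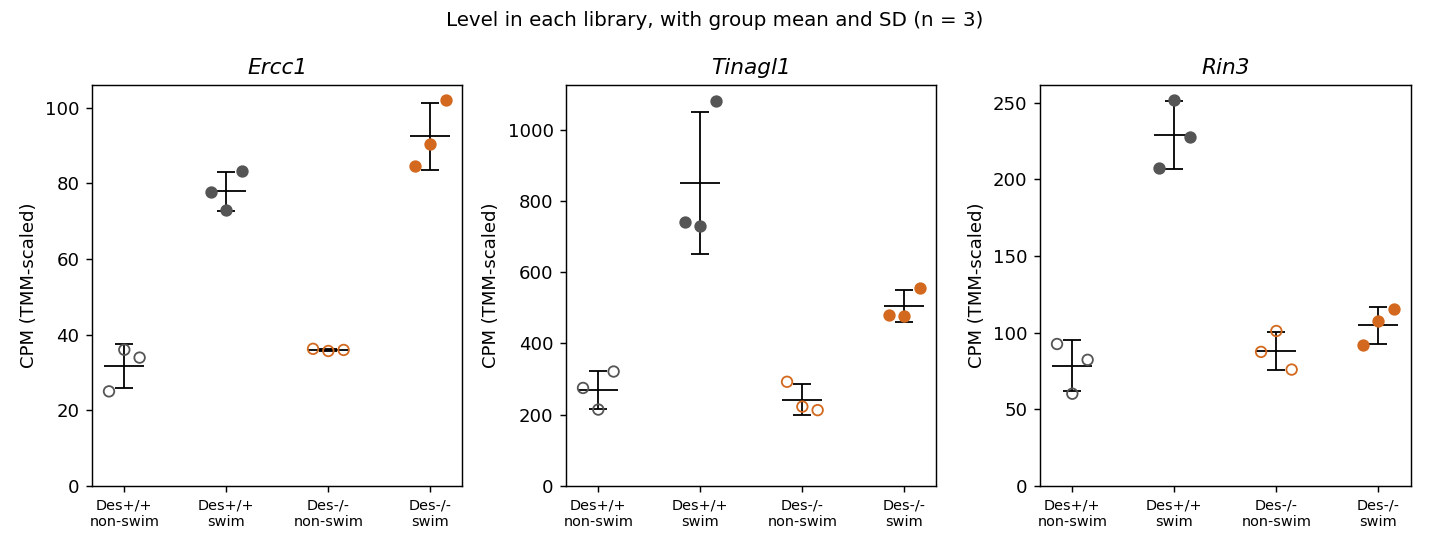
Level of Ercc1, Tinagl1 and Rin3 (CPM with TMM scaling, vertical axis from 0) in each of the 12 libraries, by group, with open circles for non-swim and filled circles for swim libraries, and the group mean and SD as bars (n = 3). The swim libraries lie above the non-swim libraries in both genotypes for Ercc1 and Tinagl1, while for Rin3 the 3 Des+/+ swim libraries (207 to 252 CPM) stand alone.

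Divided by exonic length, the levels placed Tinagl1 highest of the 3 genes in every group. In CPM per kilobase of exon, Tinagl1 had a mean level of 62.0 in Des+/+ non-swim, 195 in Des+/+ swim, 55.6 in Des-/- non-swim and 116 in Des-/- swim. Ercc1 and Rin3 lay close together in the non-swim groups, at 10.2 ± 1.88 and 11.5 ± 2.43 in Des+/+ and 11.6 ± 0.0925 and 12.9 ± 1.84 in Des-/- (SD, n = 3). After swimming their order depended on the genotype, with a mean level for Rin3 of 33.5 against 25.1 for Ercc1 in Des+/+, and of 15.3 against 29.7 in Des-/-.

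Few genes passed the threshold for swimming in these libraries. In edgeR's quasi-likelihood test with Benjamini-Hochberg adjustment over all 13158 genes, 12 genes (0.0912%) were called in Des+/+ at an adjusted p under 0.05 and 3 (0.0228%) in Des-/-, all of them higher after swimming. All 3 of Ercc1, Tinagl1 and Rin3 were among the 12 in Des+/+, and Ercc1 alone of them was among the 3 in Des-/-, which describes the choice of the genes and is not evidence for it. These totals moved widely with the method, and DESeq2 called 798 and 339 genes. With the replicate number as a block, 19 genes were called in Des+/+ and 2 in Des-/-. Leaving out 1 library, the Des+/+ count ran from 0 to 155, the latter without Des-/- non-swim replicate 3. Separation of the libraries was less selective, since all 3 swim libraries lay above all 3 non-swim libraries for 12.5% of genes tested in Des+/+, for 10.4% in Des-/- and for 1.79% in both. Ercc1 and Tinagl1 belonged to the last set, and Rin3 to the Des+/+ set.

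**Figure D2:**
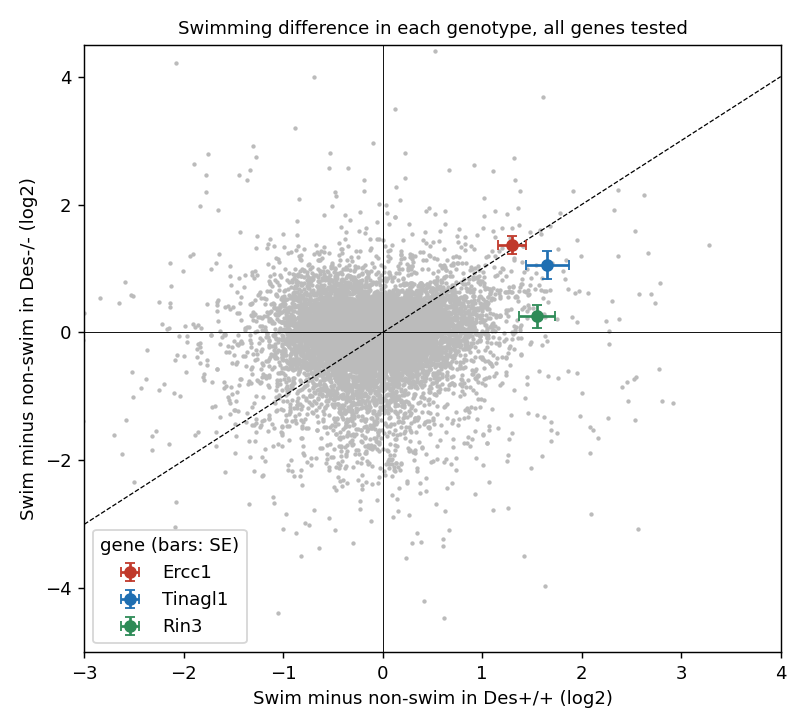
Log2 difference between swim and non-swim libraries in Des+/+ (horizontal) against that in Des-/- (vertical) for all genes tested (grey; 11 lie outside the axes), with Ercc1, Tinagl1 and Rin3 in colour and their SE as bars. The dashed line marks equal differences, and Ercc1 lies on it (1.30 and 1.36), Tinagl1 below it (1.66 and 1.06) and Rin3 near the horizontal axis (1.55 and 0.25).

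The 6 swimming differences varied little with the processing. Leaving out each library in turn, the Ercc1 difference ran from 1.16 to 1.40 in Des+/+ and from 1.28 to 1.42 in Des-/-. That of Tinagl1 ran from 1.44 to 1.80 and from 0.97 to 1.21, and that of Rin3 from 1.39 to 1.68 and from 0.16 to 0.36. Without Des-/- non-swim replicate 3, the library with the highest macrophage markers, the Des-/- differences were 1.37 for Ercc1, 0.97 for Tinagl1 and 0.16 for Rin3. The order of the genotypes was therefore kept for Tinagl1 and Rin3 in each of these fits.

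**Figure D3:**
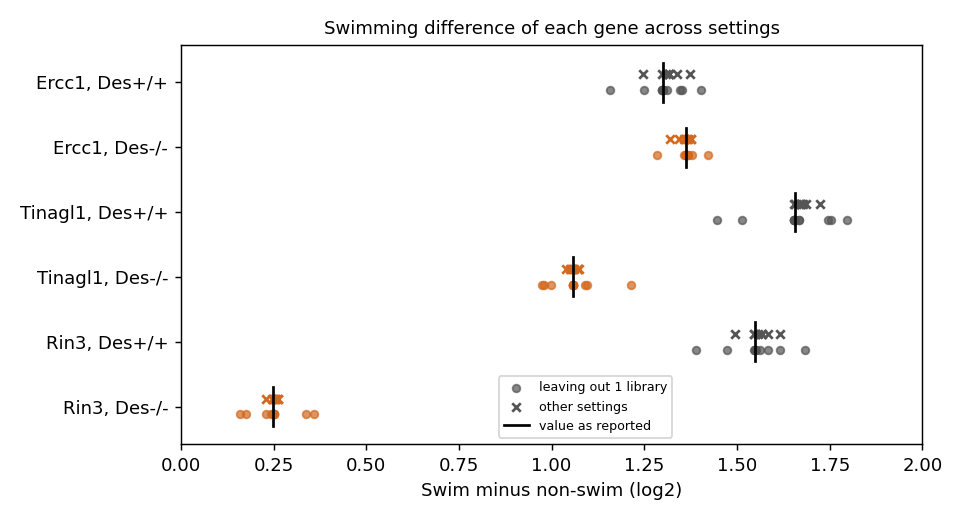
Log2 swimming difference of each gene in each genotype under each setting, with a line at the reported value and circles for fits that leave out 1 library. Crosses mark other scalings, filters, tests, counts thinned to equal depth, subsets of libraries and the replicate block. Each difference stays in a narrow range, and Rin3 in Des-/- (0.16 to 0.36) stays apart from the other 5.

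Averaged over swim and non-swim libraries, the difference between genotypes (Des-/- minus Des+/+) was 0.22 (SE 0.10) for Ercc1, -0.46 (SE 0.15) for Tinagl1 and -0.48 (SE 0.12) for Rin3. It rests on the same libraries, and on the same spread between them, as the swimming differences that chose the genes, and a gene chosen for a larger difference in Des+/+ swim libraries averages higher in Des+/+, so these values are a description with no test. Leaving out 1 library, they ran from 0.14 to 0.26, from -0.54 to -0.35 and from -0.56 to -0.41. Cell markers moved with genotype as well. Of 14 fibroblast markers, edgeR called 13 higher in Des-/- (median 1.31), and of 14 macrophage and leukocyte markers 12 higher (median 1.96). Of 14 cardiomyocyte markers it called 12 lower and 1 higher (median -1.21). The threshold was an adjusted p under 0.05, which 39.9% of all genes tested passed (2539 higher and 2711 lower). The part of these cells in the values of the 3 genes was not tested.

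For Tinagl1 and Rin3 the lower average in Des-/- lay mostly in the swim libraries. The genotype difference of Rin3 was 0.17 (SE 0.18) among non-swim libraries and -1.13 (SE 0.18) among swim libraries, and every Des+/+ swim library was at least 1.80 times every Des-/- swim library. For Tinagl1 it was -0.16 (SE 0.21) among non-swim and -0.75 (SE 0.21) among swim libraries. For Ercc1 it was 0.18 (SE 0.14) and 0.25 (SE 0.14). These within-condition values share libraries with the swimming differences and were not tested.

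The other genes of nucleotide excision repair had smaller swimming differences than Ercc1. Because Ercc1 was chosen on these same values, this order was largely set by the choice. Of 40 other genes of the pathway that were tested (damage recognition, TFIIH, incision, RPA and gap filling), edgeR called 0 after swimming in either genotype, with 6 in Des+/+ and 5 in Des-/- (15% and 12.5%) at an unadjusted p under 0.05. DESeq2 called 798 and 339 of the 13158 genes, and 2 and 1 of these 40. Over all genes tested, 20.5% in Des+/+ and 16.7% in Des-/- had an unadjusted p under 0.05, so the list was not above the background. Their median difference was -0.18 in Des+/+ and -0.01 in Des-/-, beside -0.08 and -0.01 over all genes tested. Their differences in Des+/+ lay between -0.62 and 0.31, and that of Ercc1 lay above them all. Ercc4, the nuclease that needs Ercc1, was at 16.3, 23.5 and 20.6 CPM in Des+/+ non-swim and 15.3, 20.5 and 17.4 CPM in Des+/+ swim libraries, with a fitted difference of -0.18 (SE 0.17). In Des-/- its difference was 0.13 (SE 0.17), and the libraries lay between 15.7 and 18.8 CPM, with the swim libraries narrowly above the non-swim libraries. Both parts of the nuclease thus had unlike values, with Ercc1 separated by a factor of at least 2.02 and Ercc4 overlapping in Des+/+.

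The differences of the other repair partners lay within 2 SE of 0. Xpa, which binds Ercc1 at damaged DNA, differed by -0.11 (SE 0.26) in Des+/+ and 0.48 (SE 0.26) in Des-/-. Slx4, the nuclease scaffold, differed by 0.05 (SE 0.24) and -0.11 (SE 0.24). The smallest unadjusted p values of the list in Des+/+ belonged to genes that were lower: Rfc1, the large subunit of the clamp loader, at -0.46 (SE 0.12), Rpa1, the large subunit of the single-strand binding protein, at -0.40 (SE 0.12), and Pold2, a subunit of DNA polymerase delta, at -0.56 (SE 0.17). Their edgeR adjusted p values were 0.102, 0.120 and 0.123. Averaged over swimming, 10 of the 40 genes were called higher in Des-/- and 2 lower, together 30.0% beside 39.9% of all genes.

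The basement membrane genes (laminins, collagen IV, nidogens, perlecan and their receptors) gave a different picture around Tinagl1. Of 30 others tested, edgeR called 0 after swimming in either genotype, with 6 in Des+/+ and 10 in Des-/- (20% and 33.3%, beside 20.5% and 16.7% of all genes) at an unadjusted p under 0.05. DESeq2 called 798 and 339 of the 13158 genes, and 3 and 4 of these 30. Their median difference was 0.18 in Des+/+ and -0.42 in Des-/-. In Des+/+ 19 of the 30 had a positive value, and in Des-/- 6 of 30 did, beside 42.0% and 48.5% of all genes. Tinagl1 was positive in both and larger than every one of the 30, which its choice on these values made likely. Tinag, the close relative of Tinagl1 that is known from kidney basement membranes, had 0 reads in all 12 libraries. A limit of 3 reads would be 0.249 to 0.694 CPM by the depth of a library, without TMM scaling.

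The integrin partners of Tinagl1 did not share its separation in both genotypes. Itga5, the alpha 5 integrin chain, was at 116, 133 and 145 CPM in Des+/+ non-swim and 159, 188 and 145 CPM in Des+/+ swim libraries, with a difference of 0.32 (SE 0.23), and of -0.36 (SE 0.23) in Des-/-. Itgb1, the beta 1 chain that pairs with it, differed by 0.18 (SE 0.19) and -0.37 (SE 0.19). The genes with the smallest unadjusted p in Des+/+ were Itga7, the laminin-binding alpha 7 chain of muscle, at -0.80 (SE 0.21), Dag1 (dystroglycan) at -0.53 (SE 0.17) and Nid2 (nidogen 2) at 0.67 (SE 0.23), with edgeR adjusted p values of 0.0946, 0.139 and 0.146. In Des-/- their differences were 0.26, -0.33 and -0.51. Averaged over swimming, 9 of the 30 genes were called higher in Des-/- and 3 lower, together 40.0% beside 39.9% of all genes, and the 3 lower were Itga7 (-0.63, adjusted p 0.00616), Dag1 (-0.90, adjusted p 0.000444) and Itgb1 (-0.37, adjusted p 0.0446). The median of the list was 0.32.

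Among the genes of Rab5 endocytosis, 2 of the closest to Rin3 had positive values in Des+/+ that missed the threshold. Of 26 genes tested besides Rin3, edgeR called 0 after swimming in either genotype, with 4 in each (15.4%, beside 20.5% and 16.7% of all genes) at an unadjusted p under 0.05. DESeq2 called 798 and 339 of the 13158 genes, and 2 in Des+/+ and 0 in Des-/- of these 26. A fit of the 6 Des+/+ libraries alone called 282 genes in all, with 2 of them among these 26. The median difference was 0.01 in Des+/+ and -0.08 in Des-/-. Rab5c, a Rab5 isoform, was at 143, 117 and 148 CPM in Des+/+ non-swim and 200, 218 and 245 CPM in Des+/+ swim libraries, which did not overlap, and differed by 0.70 (SE 0.16, edgeR adjusted p 0.0814). In Des-/- its libraries overlapped, with a difference of -0.13 (SE 0.16).

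Rin1, the RIN family member first known as a Ras effector, was lower in level than Rin3, at 8.36, 10.5 and 9.02 CPM in Des+/+ non-swim and 19.0, 15.1 and 15.5 CPM in Des+/+ swim libraries. Its Des+/+ groups did not overlap either, and it differed by 0.83 (SE 0.21, edgeR adjusted p 0.0910) in Des+/+ and by 0.20 (SE 0.21) in Des-/-. Rin2 and Rinl, the other family members, were near 0 in both genotypes, with -0.11 (SE 0.19) and 0.05 (SE 0.30) in Des+/+ and -0.07 (SE 0.18) and -0.12 (SE 0.29) in Des-/-. Als2cl, an exchange factor related to alsin, was positive in both genotypes, at 0.64 (SE 0.23) and 0.78 (SE 0.23).

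The remaining Rab5 group GTPases had smaller or less precise differences. Rab5a differed by 0.03 (SE 0.13) in Des+/+ and -0.10 (SE 0.13) in Des-/-, and Rab5b by -0.22 (SE 0.18) and -0.11 (SE 0.18). Rab31, a GTPase of the same subfamily on which Rin3 also acts, differed by 0.53 (SE 0.35), from 40.1 to 52.4 CPM in Des+/+ non-swim and from 57.2 to 82.3 CPM in Des+/+ swim libraries, and by -0.26 (SE 0.35) in Des-/-. Averaged over swimming, 3 of the 26 genes were called higher in Des-/-, among them Rin2 (0.79, adjusted p 0.00104), and 5 lower, among them Rab5a (-0.54, adjusted p 0.00123) and Rab5b (-0.37, adjusted p 0.0340), together 30.8% beside 39.9% of all genes. Rin3 and Rin2 thus had opposite genotype averages.

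**Figure D4:**
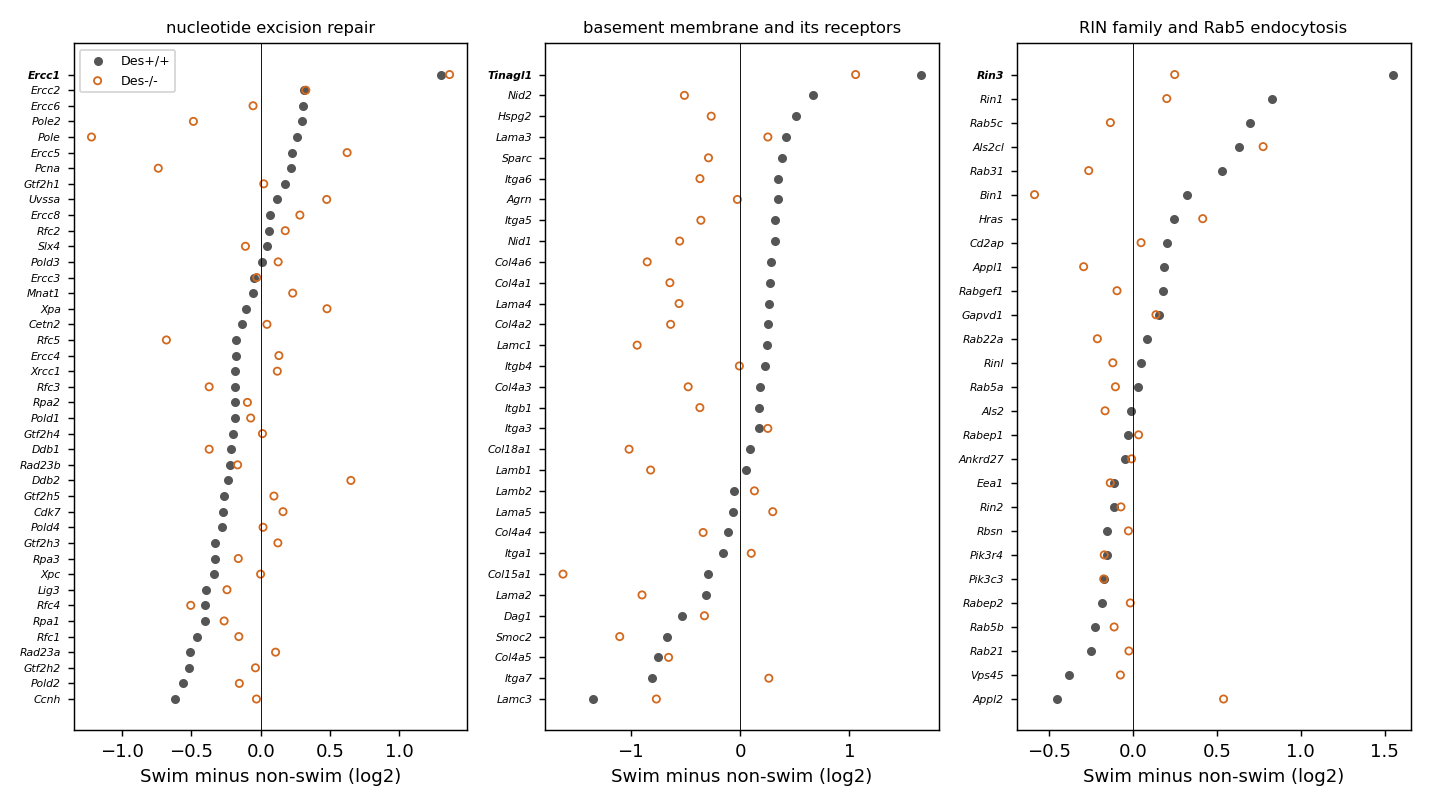
Log2 swimming difference in Des+/+ (filled) and Des-/- (open) of every tested gene of the 3 pathway lists, ordered by the Des+/+ value, with the chosen gene of each list in bold. Ercc1, Tinagl1 and Rin3 are the topmost gene of their list in Des+/+, and in Des-/- this holds for Ercc1 and Tinagl1 but not for Rin3 (0.25), which lies below Als2cl (0.78). The genes were chosen on these values, which made a top place likely.

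Every tested neighbour of the 3 loci had a lower swimming difference than the chosen gene in both genotypes. The 3 genes were chosen on these same swimming values, so this order was largely set by the choice. Across the 12 neighbours tested, the edgeR adjusted p for swimming was 0.156 or more in Des+/+ and 0.186 or more in Des-/-. The nearest to Ercc1 in value was Ppp1r13l, which encodes the p53 inhibitor iASPP and starts 3225 bases beyond the end of Ercc1 on the same strand. It was at 46.4, 77.0 and 53.2 CPM in Des+/+ non-swim and 106, 76.4 and 125 CPM in Des+/+ swim libraries, which overlapped, with a difference of 0.80 (SE 0.28). In Des-/- it was at 23.8, 30.1 and 32.5 CPM in non-swim and 42.2, 54.2 and 87.2 CPM in swim libraries, which did not overlap, with a difference of 1.09 (SE 0.29). Ercc2, a TFIIH helicase gene 25486 bases beyond Ercc1 and itself a repair gene, differed by 0.31 (SE 0.16) and 0.33 (SE 0.16).

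Cd3eap, an RNA polymerase I subunit gene on the opposite strand, shares 106 exonic bases with Ercc1 and differed by 0.10 (SE 0.32) in Des+/+ and 0.45 (SE 0.32) in Des-/-. By the methods the reads were counted by strand, while the kit the labels name does not mark it, so reads in these shared bases cannot be assigned to either gene with certainty. Upstream of Ercc1, the immediate early gene Fosb differed by -0.81 (SE 0.65) and -1.65 (SE 0.65), and the reticulon Rtn2 by -0.66 (SE 0.33) and 0.62 (SE 0.34).

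Around Tinagl1, Pef1 differed by 0.10 (SE 0.11) and 0.06 (SE 0.11), the collagen gene Col16a1 by 0.02 (SE 0.46) and -0.88 (SE 0.46), and Fabp3, the heart fatty acid binding protein gene, by -1.06 (SE 0.40) and 0.57 (SE 0.40). Lgmn, a lysosomal protease gene that ends 3229 bases beyond Rin3 on the opposite strand, differed by -0.45 (SE 0.56) and -1.43 (SE 0.57). The other tested genes around Rin3, Golga5, Cpsf2 and Atxn3, lay between -0.26 and 0.14. The other 7 neighbours (Ppm1n, Mir343, Hcrtr1, Gm853, Serinc2, Slc24a4 and Chga) had too few reads to be tested, at most 22 in any library.

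**Figure D5:**
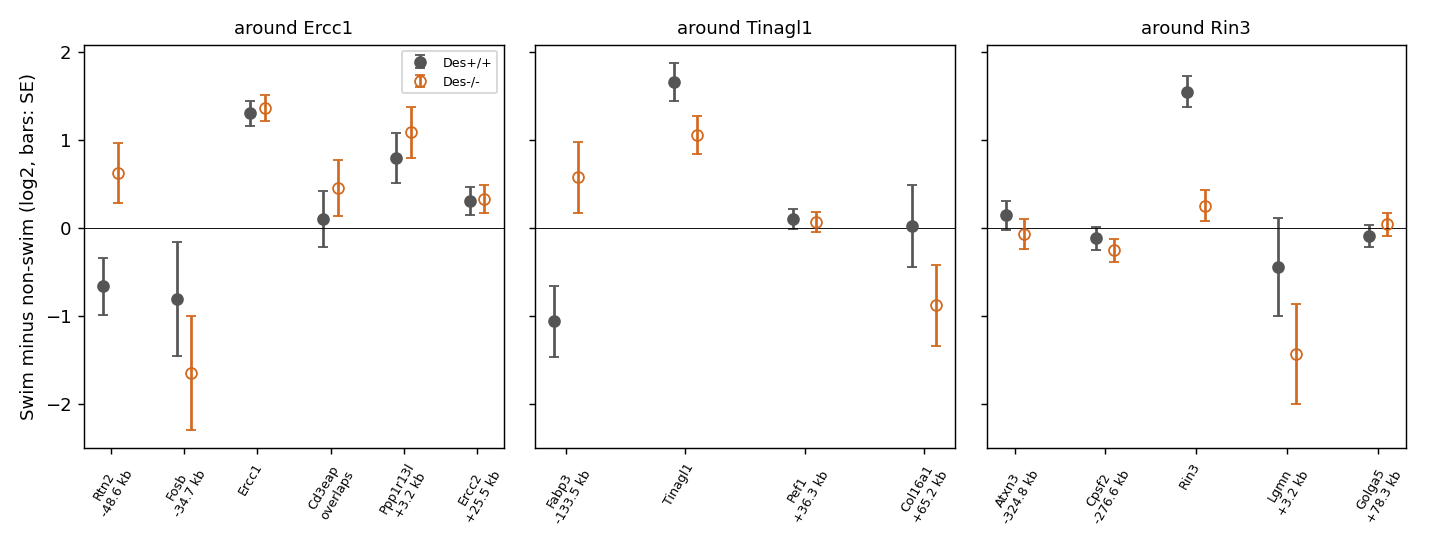
Log2 swimming difference (SE as bars) of each chosen gene and of its tested neighbours in Des+/+ (filled) and Des-/- (open), in order of their distance from the gene's ends along its strand, negative upstream. Next to Ercc1 only Ppp1r13l comes near its values (0.80 and 1.09), and the neighbours of Tinagl1 and Rin3 lie lower in both genotypes. The choice of the genes on these values made this order likely.

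The libraries also differed in the markers of other heart cells, and in bulk RNA more cells of a type cannot be told apart from more RNA per cell. The summed level of 14 endothelial markers, which none of the 3 genes was part of, was 10394, 8458 and 9574 CPM in Des+/+ non-swim and 11430, 16368 and 12706 CPM in Des+/+ swim libraries. In Des-/- it was 11848, 9823 and 7303 CPM in non-swim and 13965, 16578 and 11910 CPM in swim libraries. The swim libraries were thus higher in both genotypes, and 12 of 14 markers had a positive difference in Des+/+ and 14 of 14 in Des-/-, with medians of 0.45 and 0.39 and none at 0 reads in any library. The differences of Ercc1 (1.30 and 1.36), Tinagl1 (1.66 and 1.06) and Rin3 in Des+/+ (1.55) lay above these medians. The genes were chosen on these differences, so this order says nothing about the part of endothelial cells. That part was not tested.

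The other markers did not move with swimming in one way. Of 14 cardiomyocyte markers, 0 had a positive difference in Des+/+ (median -0.83) and 13 had one in Des-/- (median 0.54), and their summed level ranged from 60298 to 99649, 31489 to 55332, 8263 to 30143 and 19233 to 29960 CPM in Des+/+ non-swim, Des+/+ swim, Des-/- non-swim and Des-/- swim. The labelled cell type was thus present in every library, at very unequal levels. Fibroblast markers had a median of -0.20 in Des+/+ and -0.86 in Des-/- (5 and 0 of 14 positive, summed level from 5884 to 8190 CPM in Des+/+ and from 9614 to 46281 CPM in Des-/-). Macrophage and leukocyte markers had medians of -0.16 and -1.72 (5 and 0 of 14 positive, 241 to 375 CPM in Des+/+ and 253 to 4707 CPM in Des-/-). No marker of these 3 lists was at 0 in any library.

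Mural cell markers had medians near 0, at -0.04 and 0.05 (5 and 8 of 12 positive, 2830 to 6371 CPM over all libraries). Of the 12 mast cell and neutrophil markers, 5 were tested, with medians of 0.82 and -0.57 and a summed level of all 12 of only 25.5 to 88.6 CPM, and the neutrophil marker Ly6g was at 0 in all 12 libraries. Immediate early and isolation response genes had medians of -0.06 and -0.53 (8 and 1 of 18 positive, 2089 to 3397 CPM in Des+/+ and 4709 to 11391 CPM in Des-/-). Of these 7 lists only the endothelial one had a positive median in both genotypes, as Ercc1 and Tinagl1 did. The part of these cells in the values of Ercc1, Tinagl1 and Rin3 was not tested.

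The genes most like each of the 3 in pattern were found by the Pearson correlation of log2 CPM over the 12 libraries, as a description. The points share the scaling of the libraries and fall into 4 groups, so that any gene separated the same way by group scores highly. Ercc1 was most like Nr1h2, the nuclear receptor LXR beta (r = 0.942), followed by Trim24 (0.936), Pmvk (0.922), Stx3 (0.917) and Pparg (0.910). Tinagl1 was most like Timp3, a matrix-bound inhibitor of metalloproteinases (0.978), followed by Pxdc1 (0.939), the adhesion receptor Adgrg1 (0.938), Mafk (0.935) and Max (0.934). Rin3 was most like Gatad2a, a subunit of the NuRD complex (0.960), followed by the unconventional myosin Myo1c (0.956), the endosomal SNARE gene Vamp3 (0.948), Atxn7 (0.941) and Cebpg (0.935).

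Timp3 had the same order of groups as Tinagl1, but not of libraries within the Des+/+ swim group or within Des-/-. It was at 994, 760 and 1242 CPM in Des+/+ non-swim and 2449, 2505 and 3750 CPM in Des+/+ swim libraries, with the third swim library highest, as for Tinagl1. In Des-/- it was at 997, 1001 and 619 CPM in non-swim and 1808, 1882 and 1724 CPM in swim libraries, where the library highest in Tinagl1 was the lowest in Timp3, and its differences were 1.54 and 1.05. The 5 genes most like Rin3 had differences of 0.46 to 0.79 in Des+/+ and 0.04 to 0.17 in Des-/-, the same order of genotypes at a smaller size. Among the 3 genes themselves, the correlation was 0.881 between Tinagl1 and Rin3, 0.823 between Ercc1 and Tinagl1 and 0.602 between Ercc1 and Rin3. By Spearman's rank correlation Nr1h2 was again first for Ercc1, while only 3 of the 5 genes named for Ercc1 and 3 of the 5 for Rin3 were among the 50 most alike.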

How the data were processed

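Reads (100 bp, single-end, NovaSeq) were aligned by the authors to GRCm38 (mm10) with HISAT2 2.2.1, sorted with SAMtools 1.13 and counted per gene with HTSeq in reverse-strand mode. The annotation release is not given in the sources used here. The deposited values are whole-number counts per gene, with a summary of unassigned reads that was kept out of library sizes. The labels name a kit that does not mark strand and the methods a directional one. Genes were filtered with filterByExpr, scaled by TMM and fitted with edgeR 4.0.16 (R 4.3.3) as 4 group means with the quasi-likelihood test, called at a Benjamini-Hochberg adjusted p under 0.05. The authors used DESeq2 1.40.2, and DESeq2 1.42.0 was an alternative here. Correlations use log2 CPM with a prior count of 2. On simulated counts for 13047 genes with the Des+/+ swimming comparison, 50 of 100 genes changed by a log2 of 1, 92 of 100 changed by 2 and 10 of 12847 unchanged genes were called. The edgeR and permutation tests planned for the genotype average of the 3 genes are not reported, since it shares libraries and spread with the values that chose them. The 3 genes and the gene lists were chosen with earlier results of these data known. Named genes are the close partners, up to 3 genes a list by the smallest unadjusted p for swimming in Des+/+, the 3 nearest genes on each side, and the 5 most correlated. Replicate numbers were checked for pairing by the correlation of same-numbered deviations from group means. It was 0.365, 0.316 and 0.602 between the Des-/- groups and over 0.1 for all 3 numbers in no other pair of groups. This is only a hint of pairing by number in Des-/-, and libraries of unlike number were not compared. All pairs of replicates differed beyond sampling noise. Alternatives were other scalings, no filter, a filter on a mean count of at least 20 and counts thinned to equal depth. Further ones were a fit per genotype, blocks of same-numbered replicates and fits that each left out 1 library. Poisson intervals cover counting error only.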

Additional observations from a re-analysis of the deposited data

Results flagged for a closer look

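The share of uniquely aligned reads that were counted for no gene is outside the counts used above. Its mean was 36.43% in Des+/+ non-swim, 47.85% in Des+/+ swim, 45.16% in Des-/- non-swim and 60.01% in Des-/- swim libraries. It was higher after swimming in both genotypes, as Ercc1 and Tinagl1 were, and its part in their values was not tested.

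A pair of laminin network genes of the Tinagl1 list was flagged because their libraries separated in opposite directions in the 2 genotypes. The difference between genotypes missed the threshold. Only the chosen genes, their tested neighbours and the pathway lists were searched for this, and its share over all genes was not counted. Lamc1, the laminin gamma 1 chain, had a swimming difference of 0.2507 (SE 0.25) in Des+/+ and of -0.941 (SE 0.25) in Des-/-, which differed by -1.19 (SE 0.36, edgeR interaction, adjusted p 0.199). Nid2, nidogen 2, had one of 0.6714 in Des+/+ and of -0.5085 in Des-/-, which differed by -1.18 (SE 0.32, adjusted p 0.199 by the same edgeR test). Tinagl1 was higher after swimming in both.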

How the results depend on the processing

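The swimming differences of the 3 genes moved by less than 1 SD of the replicates under every alternative run. The number of genes called after swimming in Des+/+ (12) was 54 with RLE scaling (87.04% of them higher, against 100%), 58 without the filter, 798 with DESeq2, 19 with the replicate block and 282 in a fit of the 6 Des+/+ libraries, and from 0 to 155 leaving out 1 library. In Des-/- (3) it was 7 without the filter, 339 with DESeq2, 0 in a fit of the 6 Des-/- libraries, and from 0 to 51 leaving out 1 library (51 without Des-/- swim replicate 3). DESeq2 called 2 and 1 nucleotide excision repair genes and 3 and 4 basement membrane genes in Des+/+ and Des-/-, and 2 genes of the Rin3 list in Des+/+, where the fit of 6 libraries also called 2. Leaving out 1 library called 0 to 1 basement membrane gene after swimming in Des-/-, and 7 to 14 for genotype. Upper-quartile scaling brought the genotype average of Ercc1 to 0.31 and that of Tinagl1 to -0.36, moved the median of all genes from 0.03 to 0.13 and the share of higher calls from 48.36% to 61.51%. Without the filter that of Tinagl1 was -0.42, and leaving out 1 library it ran from -0.54 to -0.35. Ercc1 ran from 0.14 to 0.26. The mean score of mural cell markers changed sign as a median over markers, to 0.036 in Des+/+ and -0.230 in Des-/-. The replicate block, with the libraries paired by number in all groups at once, moved no swimming difference of the 3 genes by 1 SD. No fit paired the Des-/- libraries alone. The cause of these changes was not tested. The Des-/- swim libraries were the shallowest, where Rin3 rested on 491 to 748 reads in a library and Ercc1 on 414 to 664. With counts thinned to equal depth, the Rin3 difference in Des-/- was 0.258, against 0.250 as reported.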
